A study of Homo sapiens with 6 samples.

Results

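Small nucleolar RNA (snoRNA) host genes were examined in the transcriptome of HK-2 cells, an immortalised human line derived from the epithelium of the proximal tubule of the kidney. The host genes were chosen by their gene symbol, which was SNHG with a number, *GAS5*, *ZFAS1*, *EPB41L4A-AS1*, *DANCR*, or *TMEM107*. Of the 29483 genes in the expression table, 31 carried such a symbol, 30 of them noncoding and 1 (*TMEM107*) protein coding, and 2 further host genes of the annotation were not analysed here. This group was proposed with earlier results of the same comparison known, so the counts below describe the group and are not independent evidence about it. Both groups of cells were exposed to 25 mM high D-glucose (HG) medium for 7 days. The case group was then treated with 10 μM TEPP-46, a compound that activates pyruvate kinase M2 by favouring its tetramer, for 1 day in the presence of HG, and the control group was not. Each group had 3 replicates, all from 1 cell line.

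A snoRNA host gene is transcribed into a precursor whose introns carry snoRNAs, short nuclear RNAs that guide the chemical modification of ribosomal RNA. Box C/D snoRNAs (named SNORD) guide 2′-O-methylation and box H/ACA snoRNAs (named SNORA) guide pseudouridylation. The spliced exons that remain leave for the cytoplasm, where ribosomes can translate a short reading frame near their start, and many such RNAs are then degraded by nonsense-mediated decay, because exon junctions lie far behind the stop codon. Spliced host RNA can therefore accumulate when translation or decay is blocked, without any change of the snoRNAs. Several hosts also start with a terminal oligopyrimidine (TOP) tract, the sequence that ties the translation of ribosomal protein mRNAs to growth signals.

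The reading frames below are shown because they are the feature on which this decay depends. Each runs 5′ to 3′ from the first AUG of the canonical GENCODE v44 transcript (GRCh38) to its stop codon, and the capitals mark the start and stop codons. *SNHG1* (chr11:62851978-62855953, minus strand) and *SNHG17* (chr20:38419638-38435409, minus strand) held the smallest P-values of the group, and *SNHG5* (chr6:85650491-85678932, minus strand) is a host with a TOP tract.
SNHG1: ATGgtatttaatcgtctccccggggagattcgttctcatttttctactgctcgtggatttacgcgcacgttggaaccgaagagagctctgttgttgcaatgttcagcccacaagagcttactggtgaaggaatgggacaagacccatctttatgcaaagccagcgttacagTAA
SNHG17: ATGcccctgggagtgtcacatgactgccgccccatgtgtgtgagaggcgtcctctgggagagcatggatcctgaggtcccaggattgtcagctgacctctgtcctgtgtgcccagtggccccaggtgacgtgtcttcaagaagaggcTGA
SNHG5: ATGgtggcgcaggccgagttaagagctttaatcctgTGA

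These frames held 57 codons in *SNHG1*, 49 in *SNHG17*, and 12 in *SNHG5* before the stop codon. Exon junctions at least 50 nucleotides behind the stop codon, the distance beyond which a junction can mark an RNA for decay, numbered 7 in *SNHG1*, 4 in *SNHG17*, and 5 in *SNHG5*. The *SNHG1* frame depends on the annotated start. The start of *SNHG1* in RefSeq was base 38 of the GENCODE transcript and thus behind its first AUG, and from that start the first frame held 42 codons with 5 junctions behind it. Of the 30 noncoding hosts, 27 (90.0%) had at least 1 such junction, as did 24 (92.3%) of the 26 that were tested. Among the 1170 other long noncoding RNA (lncRNA) genes that were tested, 577 (49.3%) had one, and their canonical transcripts had a median of 2 exons against 4 in the hosts.

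The 3 control libraries held 18634891, 17924033, and 17378710 reads on genes, and the 3 case libraries held 16711934, 16047243, and 15363254 reads, as derived from the steps between the deposited values. The values were given as FPKM, fragments per kilobase, which divide the reads of a gene by its length and by the reads of its library. In bulk RNA of this kind, fewer cells of a type and less RNA per cell cannot be told apart. Epithelial keratins were abundant, with a mean of 308 FPKM for *KRT8*, 190 for *KRT18*, and 346 for *KRT19*. *KRT8* was at 356, 342, and 335 FPKM in the control group. It was lower in the case group, at 302, 246, and 266 FPKM (adjusted P-value of 0.125 by limma), while the groups of *KRT18* and *KRT19* overlapped. *CDH1*, the adhesion protein E-cadherin, was at 3.34, 3.50, and 3.40 FPKM in the control group and fell to 1.83, 2.32, and 2.00 FPKM in the case group (adjusted P-value of 0.0156 by limma), and its part in the results on host genes was not tested. Of 13 genes listed as markers of proximal tubule epithelium, 12 were in the expression table. Only 4 reached a mean of 0.5 FPKM, which were these keratins and *CDH1*. The listed *PAX8*, *PAX2*, *CDH2*, *ANPEP*, and *GGT1* were under this level or absent. Defining genes of the mature proximal tubule were near 0, among them *LRP2* (megalin), *CUBN* (cubilin), *AQP1*, and *SLC34A1*, each at 0.123 FPKM or less in every library. Summed over their lists, markers of endothelium reached at most 0.0886 FPKM, of fibroblasts 0.400 FPKM, and of podocytes and the distal tubule 0.119 FPKM. Leukocyte markers summed to between 0.319 and 1.01 FPKM. The most abundant of them was *CD14*, at 0.621 to 0.915 FPKM in control libraries and at 0.231 to 0.286 FPKM in case libraries. Its mean over all libraries reached 0.5 FPKM only through the control group, so no P-value is given for it.

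Host RNA was abundant among lncRNA in these cells. The 31 hosts together summed to 603, 547, and 620 FPKM in control replicates 1, 2, and 3 and to 793, 771, and 856 FPKM in case replicates 1, 2, and 3, so that each case sum was above each control sum. The unscaled sum over all genes was also higher, at 310111 to 323755 FPKM in case libraries against 289245 to 295418 in control libraries. Of that sum, the noncoding hosts held 0.188% to 0.209% in control libraries and 0.244% to 0.264% in case libraries. The 30 noncoding hosts held between 13.7% and 14.8% of the FPKM of all 6646 lncRNA genes in control libraries, against between 13.7% and 17.1% in case libraries. Levels were concentrated in a few hosts, and the 5 most abundant held between 52.7% and 58.0% of the summed FPKM of the 31 hosts in each library. In the control group the order by mean FPKM opened with *SNHG32*, *SNHG6*, *SNHG5*, *GAS5*, and *SNHG8*. *SNHG1* was the seventh of the order in the control group and the third in the case group. This order rests on the gene lengths used by the authors, which were shorter than the exon length of the annotation used here in 28 of the 31 hosts.

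**Figure D1:**
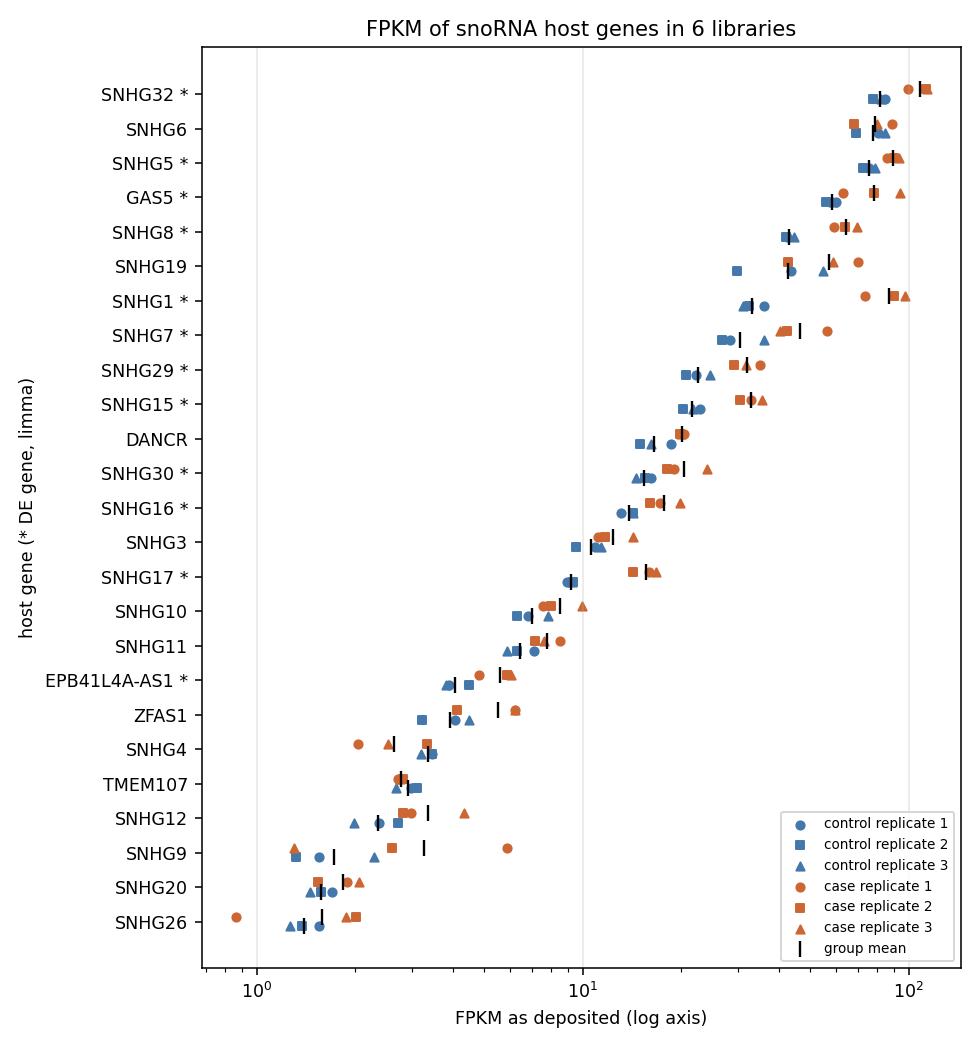
FPKM as deposited (log axis) of the 25 host genes whose mean reached 1 FPKM, with 1 point per library (3 control, 3 case) and a bar at each group mean. An asterisk marks the 12 DE genes. The *SNHG1* case libraries sit between 73.5 and 97.7 FPKM, all above the control libraries at 31.0 to 36.0, while the libraries of *SNHG6* overlap.

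To find which hosts differed between the case and control groups, FPKM values were scaled between libraries and tested by limma across the 13599 genes whose mean reached 0.5 FPKM. A differentially expressed (DE) gene had an adjusted P-value of at most 0.05. Of the 31 hosts, 27 passed the filter on low values, 12 were upregulated DE genes, and none was a downregulated DE gene, where 7.34% of all tested genes were upregulated and 5.84% were downregulated. Without adjustment, 18 hosts were higher and 0 were lower at a P-value under 0.05, beside 16.8% and 16.2% of all tested genes. The median log2 fold change, log2(FC), of the 27 tested hosts was 0.47, and that of all tested genes was 0.00. The fitted value was above 0 in 24 of the 27. In 17 hosts the 3 scaled case values lay above the 3 scaled control values, which was so for 19.5% of all tested genes, and in 0 tested hosts they lay below, which was so for 20.4%. Among the 1196 lncRNA genes in this same fit, which include the 26 tested noncoding hosts, 6.1% were upregulated and 1.42% were downregulated. Their median log2(FC) was 0.10.

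Most of the upregulated hosts were abundant, as were 17 of the 27 tested hosts. Of the 17 hosts with a mean of at least 5 FPKM, 11 were DE genes, and of the 8 with a mean from 1 to under 5 FPKM, 1 was. At all levels together, 7.34% of all tested genes were upregulated. The share called within each band is not given for all genes, so these counts are not read as particular to the hosts. Upregulated hosts carried snoRNAs of either class. By position in RefSeq, 6 of the 12 tested hosts with SNORD genes alone, 5 of the 10 with SNORA genes alone, 1 of the 2 with both, and 0 of the 3 with neither were upregulated. Leaving out 1 control library lowered the number of upregulated hosts to 2 without replicate 1, 2 without replicate 2, and 3 without replicate 3. Over all tested genes, upregulated calls fell from 998 to 76, 55, and 68 in the same fits. Leaving out case replicate 3 lowered the hosts to 4 and all upregulated genes to 121. *SNHG1* and *SNHG17* remained upregulated in each of these fits. Without case replicates 1 and 2, 11 and 16 hosts were upregulated, beside 1221 and 1813 of all tested genes.

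The strandedness of the libraries was not given in the sources used here, so reads of a host and of a gene on the opposite strand cannot be told apart where their exons overlap. Among the upregulated hosts, the share of annotated exon bases covered by exons of the opposite strand was 51.2% in *EPB41L4A-AS1*, 37.6% in *SNHG8*, 30.3% in *SNHG7*, and 28.5% in *SNHG16*. It was 7.75% in *GAS5*, 6.54% in *SNHG30*, and 5.59% in *SNHG29*. *SNHG1*, *SNHG17*, *SNHG15*, *SNHG32*, and *SNHG5* had no such overlap. These shares refer to the exons of the annotation used here. The lengths used by the authors were often shorter, such as 923 bases against 6614 in *SNHG8*, so shares of the counted bases may differ.

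**Figure D2:**
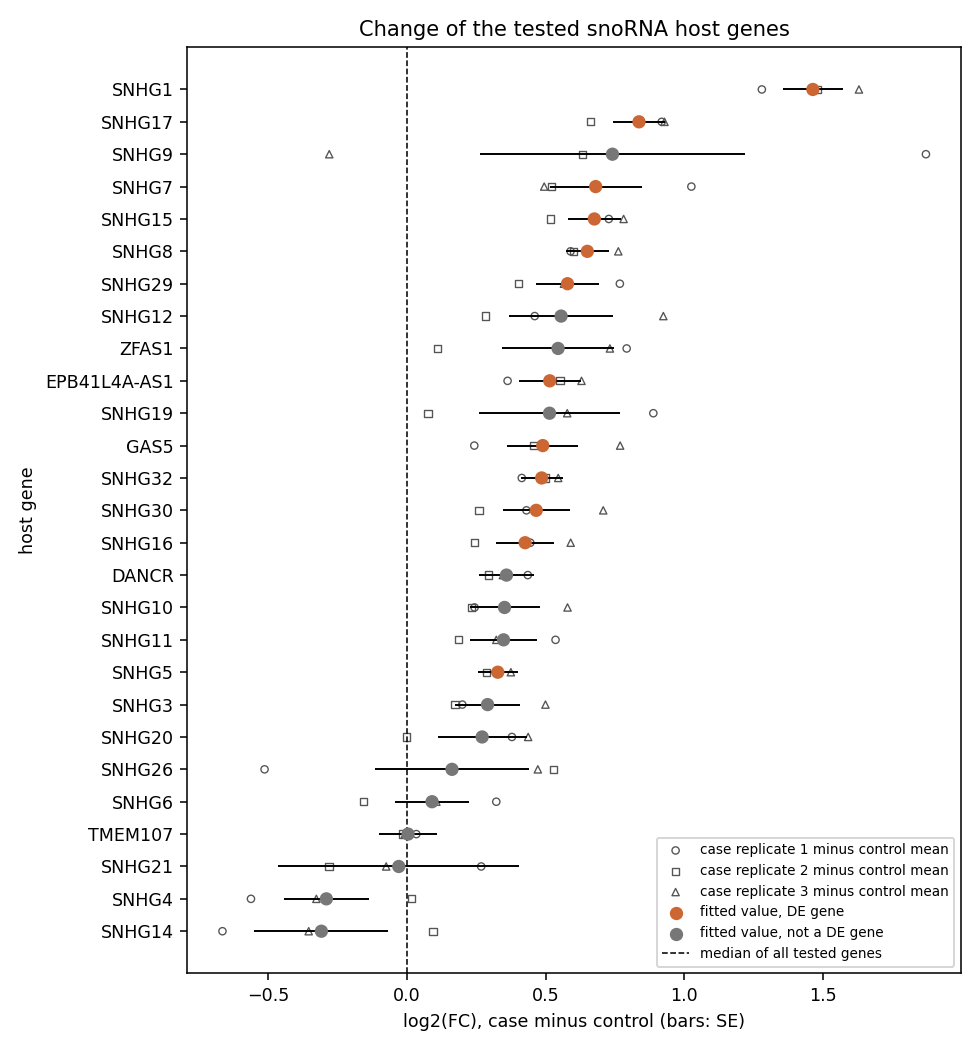
log2(FC) of the 27 tested host genes from limma, case minus control, with bars for the SE. Open symbols are each case library minus the control mean on the same log2 scale, and the dashed line is the median of all 13599 tested genes. The 12 DE genes (orange) lie between 0.33 and 1.46, and 3 hosts lie below 0.

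*SNHG1*, which hosts box C/D snoRNAs, showed the largest fitted change among the 27 tested hosts. Its level was 36.0, 32.4, and 31.0 FPKM in control replicates 1, 2, and 3 and 73.5, 90.5, and 97.7 FPKM in case replicates 1, 2, and 3, from between 2024 and 5637 reads per library. The lowest case library was above the highest control library by more than the range of either group. The log2(FC) was 1.46 ± 0.11 (SE, n = 3 per group) with an adjusted P-value of 0.00152 by limma, a 2.76-fold level with a 95% interval from 2.32 to 3.28. By P-value *SNHG1* was the sixth of all tested genes. No other host had a fitted log2(FC) of 1 or more.

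*SNHG32*, the most abundant host, lies beside the heat shock *HSPA1A* and *HSPA1B* genes in the major histocompatibility region and carries *SNORD48* and *SNORD52*. It was at 84.9, 77.7, and 82.5 FPKM in the control group and at 99.4, 113, and 114 FPKM in the case group. The groups did not overlap, and the log2(FC) was 0.49 ± 0.08 with an adjusted P-value of 0.0137 by limma. *SNHG5*, host of *SNORD50A* and *SNORD50B*, was at 75.4, 72.2, and 78.7 FPKM in the control group and at 86.0, 90.0, and 93.1 FPKM in the case group. Its replicates were close together in both groups, and this smallest change among the upregulated hosts, a log2(FC) of 0.33 ± 0.07, had an adjusted P-value of 0.0272. *SNHG5* kept its call in 7 of the 11 other settings, and both *SNHG32* and *SNHG5* kept theirs in 2 of the 6 fits without 1 library.

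*GAS5* (chr1:173858559-173868882, minus strand) is the host best known as a target of nonsense-mediated decay. It was first described as an RNA that accumulates in growth-arrested cells, and its spliced RNA can bind the glucocorticoid receptor. RefSeq places 10 SNORD genes and 1 SNORA gene within it. It was at 59.9, 55.8, and 58.6 FPKM in the control group and at 62.8, 78.1, and 94.3 FPKM in the case group. The control libraries lay together while the case libraries were spread, with case replicate 1 just above the control group. The log2(FC) was 0.49 ± 0.13 with an adjusted P-value of 0.0440 by limma, the largest adjusted P-value among the 12. The call was kept in 6 of the 11 other settings and in 2 of the 6 fits without 1 library.

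The other upregulated hosts of box C/D snoRNAs were *SNHG29*, *SNHG30*, and *SNHG16*. *SNHG29*, host of *SNORD49A*, *SNORD49B*, and *SNORD65*, was at 22.3, 20.7, and 24.6 FPKM in the control group and at 35.1, 29.2, and 31.8 FPKM in the case group. Its log2(FC) was 0.58 ± 0.11 with an adjusted P-value of 0.0209 by limma, and the groups did not overlap. *SNHG30*, host of *SNORD7*, was at 16.2, 15.6, and 14.5 FPKM in the control group and at 19.0, 18.1, and 24.1 FPKM in the case group. Case replicate 3 stood above the other 2 case libraries, and the log2(FC) was 0.47 ± 0.12 with an adjusted P-value of 0.0429. The call of *SNHG30* was kept in 5 of the 11 other settings and in 1 of the 6 fits without 1 library, and was lost with TPM, with FPKM as deposited, and with the replicate number as a block. *SNHG16*, host of the *SNORD1* genes, was at 13.1, 14.3, and 14.3 FPKM in the control group and at 17.3, 16.1, and 20.0 FPKM in the case group, with a log2(FC) of 0.43 ± 0.10 and an adjusted P-value of 0.0362. All 3 case libraries of *SNHG16* were above its control libraries. *SNHG16* kept its call in 7 of the 11 other settings, not with TPM or FPKM as deposited among them, and *SNHG29* in 9. Each kept it in 2 of the 6 fits without 1 library.

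*SNHG17* was the leading host of box H/ACA snoRNAs, carrying 4 genes of the *SNORA71* family. It was at 8.97, 9.36, and 9.26 FPKM in the control group and at 16.0, 14.3, and 16.8 FPKM in the case group. The control libraries differed by less than 1 FPKM and the case libraries stood well apart from them. The log2(FC) was 0.84 ± 0.10 with an adjusted P-value of 0.00562 by limma, a 1.79-fold level with a 95% interval from 1.53 to 2.08.

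*SNHG7*, host of *SNORA17A* and *SNORA17B*, was at 28.3, 26.7, and 36.0 FPKM in the control group and at 56.1, 42.3, and 40.4 FPKM in the case group. Control replicate 3 and case replicate 1 were the high libraries of their groups, and the distance between the groups was smaller than the range within either. Its log2(FC) was 0.68 ± 0.17 with an adjusted P-value of 0.0366 by limma. *SNHG15*, host of *SNORA9*, was at 22.9, 20.3, and 21.8 FPKM in the control group and at 32.8, 30.4, and 35.5 FPKM in the case group, with a log2(FC) of 0.68 ± 0.10 and an adjusted P-value of 0.0109. The *SNHG15* groups were apart by more than the range of either. *SNHG7* kept its call in 8 of the 11 other settings, and in 2 of the 6 fits without 1 library, and *SNHG15* in 3 of those 6.

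*SNHG8*, host of *SNORA24*, was at 42.3, 42.1, and 44.4 FPKM in the control group and at 59.1, 63.7, and 69.4 FPKM in the case group. The groups were again apart by more than the range of either, and the log2(FC) was 0.65 ± 0.08 with an adjusted P-value of 0.00706 by limma. *EPB41L4A-AS1*, host of *SNORA13* and transcribed antisense to the cytoskeletal gene *EPB41L4A*, was the 1 DE gene among the hosts with a mean under 5 FPKM. It was at 3.90, 4.49, and 3.82 FPKM in the control group and at 4.80, 5.87, and 6.03 FPKM in the case group. Its groups did not overlap, and the log2(FC) was 0.51 ± 0.11 with an adjusted P-value of 0.0263. *EPB41L4A-AS1* kept its call in 7 of the 11 other settings, not with TPM or FPKM as deposited among them, and in 2 of the 6 fits without 1 library, and *SNHG8* in 4 of those 6.

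Of the 15 tested hosts that were not DE genes, 12 had a fitted value above 0 and 3 below, and in 5 of them all scaled case values lay above the control values, beside 19.5% of all tested genes. *DANCR*, an RNA known for holding progenitor cells undifferentiated and the host of *SNORA26*, was just outside the threshold. It was at 18.6, 15.0, and 16.2 FPKM in the control group and at 20.5, 19.9, and 20.1 FPKM in the case group, with a log2(FC) of 0.36 ± 0.10 and an adjusted P-value of 0.0512 by limma. The groups did not overlap, and case values varied less than control values. *DANCR* was a DE gene in 5 of the 11 other settings and in 1 of the 6 fits without 1 library. *SNHG11*, host of *SNORA60* and *SNORA71E*, was at 7.08, 6.31, and 5.85 FPKM in the control group and at 8.51, 7.13, and 7.64 FPKM in the case group, which gave a log2(FC) of 0.35 ± 0.12 and an adjusted P-value of 0.0889. The lowest case library of *SNHG11* was nearly level with its highest control library.

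*SNHG3*, which carries *SNORA73A* and *SNORA73B* and shares exons with the chromatin factor gene *RCC1*, was at 10.9, 9.51, and 11.4 FPKM in the control group and at 11.1, 11.7, and 14.3 FPKM in the case group. Its log2(FC) was 0.29 ± 0.12 with an adjusted P-value of 0.130 by limma, and the deposited values overlapped. *SNHG10* was at 6.81, 6.31, and 7.81 FPKM in the control group and at 7.54, 8.01, and 9.94 FPKM in the case group. Its log2(FC) was 0.35 ± 0.13 with an adjusted P-value of 0.0992, and these values overlapped as well.

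The remaining 2 hosts with a mean of at least 5 FPKM varied within their groups. *SNHG19*, host of *SNORD60*, was at 43.6, 29.7, and 54.5 FPKM in the control group and at 70.0, 42.6, and 58.8 FPKM in the case group. The groups overlapped and the log2(FC) of 0.51 ± 0.25 had an adjusted P-value of 0.197 by limma. *SNHG6*, host of *SNORD87*, was at 80.5, 69.1, and 84.5 FPKM in the control group and at 88.8, 68.2, and 79.7 FPKM in the case group. Its libraries covered nearly the same range in both groups, the log2(FC) was 0.09 ± 0.13, and the adjusted P-value was 0.672. The 95% interval of the ratio for *SNHG6* ran from 0.861 to 1.32.

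Of the hosts with a mean between 0.5 and 5 FPKM that were not DE genes, *SNHG12*, *ZFAS1*, *SNHG9*, *SNHG20*, and *SNHG26* had a log2(FC) between 0.16 and 0.74 with adjusted P-values by limma from 0.0843 to 0.722. *SNHG9* rested on only 11 to 54 reads per library and its case values ran from 1.30 to 5.86 FPKM. *TMEM107*, which encodes a protein of the ciliary transition zone and whose locus holds *SNORD118*, had a log2(FC) of 0.00 ± 0.11 and an adjusted P-value of 0.985. The 3 hosts with a fitted value below 0 were *SNHG4* at -0.29, *SNHG14* at -0.31, and *SNHG21* at -0.03, with adjusted P-values of 0.223, 0.406, and 0.969. *SNHG14*, the long imprinted host of the *SNORD116* cluster, and *SNHG4* each had their lowest case value in replicate 1, and *SNHG4* shares exons with *MATR3*.

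The 4 hosts under the filter on low values were *SNHG22*, *SNHG25*, *SNHG28*, and *SNHG31*. *SNHG22* had at most 1 read in any library, *SNHG25* at most 3, and *SNHG28* between 5 and 12. *SNHG31* went the other way from the abundant hosts. It was at 0.560, 0.344, and 0.628 FPKM in the control group and at 0.170, 0.296, and 0.0309 FPKM in the case group, from between 1 and 23 reads per library, and the groups did not overlap. A difference in any of these 4 was not tested.

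Other scalings left the direction of the upregulated hosts in place. All 12 kept a log2(FC) above 0 in each of the 11 other settings and in each of the 6 fits that left out 1 library. All 12 were picked as upregulated in these data, with every scaled case value above every scaled control value. Leaving out 1 library could therefore hardly reverse the sign, and the kept sign is not read as support. With FPKM rescaled to TPM, in which every library has the same sum, the median of all tested genes moved to -0.19, and 383 genes were upregulated and 2387 downregulated against 998 and 794 with the reported scaling. With FPKM as deposited these numbers were 662 and 1124. At an unadjusted P-value under 0.05, 10 hosts were higher and 1 was lower with TPM, beside 5189 of the 13599 tested genes in either direction. The number of upregulated hosts was 6 with TPM and 8 with FPKM as deposited, and the median host exceeded the median of all genes by 0.46 and 0.47. *SNHG1* and *SNHG17* were upregulated in all 17 of these fits, and *SNHG8*, *SNHG15*, and *SNHG32* in all 11 that kept every library.

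**Figure D3:**
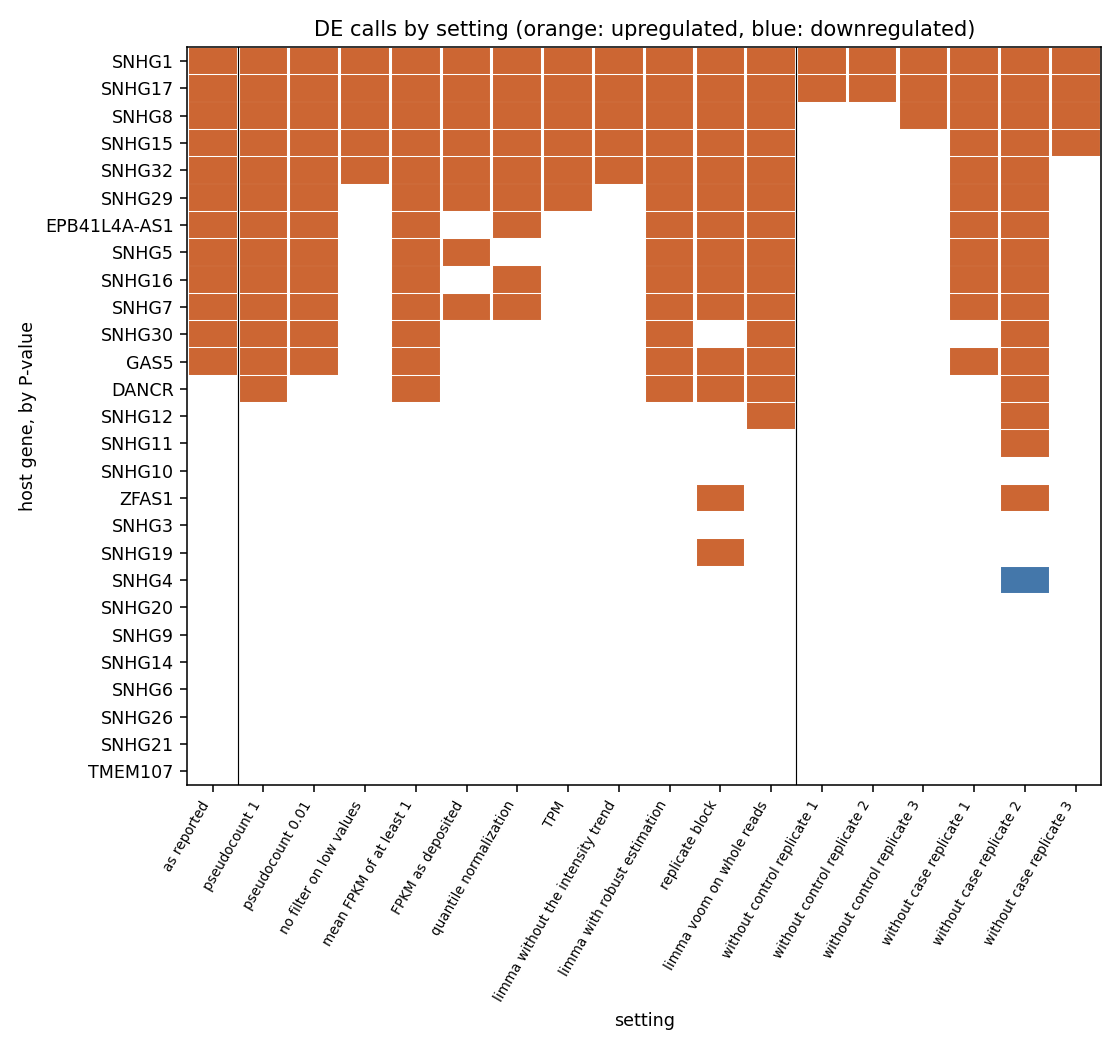
DE calls of the 27 tested host genes (vertical axis, ordered by P-value) in the reported fit, 11 other settings, and 6 fits that left out 1 library (horizontal axis). *SNHG1* and *SNHG17* are called in every column, and the 3 fits without a control library call 2 or 3 hosts.

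The case libraries were not alike. Relative to the control mean, the median host was higher by 0.43 on the log2 scale in case replicate 1, by 0.28 in replicate 2, and by 0.55 in replicate 3. Among the 12 upregulated hosts, by scaled values, case replicate 3 was the highest case library in 10, case replicate 2 the lowest in 6, and case replicate 1 the lowest in 5. In FPKM as deposited, *SNHG5* was lowest in case replicate 1 and not in case replicate 2. Over all tested genes, the first principal component held 37.2% of the variance, and case replicate 2 scored 9.54 on it against 30.5 and 34.4 for the other case libraries and between -27.8 and -22.9 for the control libraries. The median SD of a gene on the log2 scale was 0.09 among control libraries and 0.19 among case libraries. Whether this spread among the case libraries bears on the host genes was not tested.

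The start of each host was examined for a TOP tract, taken as C at the first transcribed base followed by at least 4 more bases that are C or T. RefSeq (GRCh38.p14) promoters of 300 bases, 250 before the start and 50 from it, matched 27 of the 31 hosts by symbol. The windows below show 20 bases before the annotated start and 30 from it, 5′ to 3′ on the transcribed strand, and the capitals mark the first transcribed base with the C and T bases that follow it without a break. They are *SNHG32* (chr6:31834896-31834945, plus strand), *SNHG5* (chr6:85678704-85678753, minus strand), *ZFAS1* (chr20:49278622-49278671, plus strand), and *SNHG19* (chr16:2155329-2155378, minus strand) as starts that fit this rule, and *SNHG1* (chr11:62855856-62855905, minus strand) and *SNHG17* (chr20:38435299-38435348, minus strand) as the leading DE genes.
SNHG32: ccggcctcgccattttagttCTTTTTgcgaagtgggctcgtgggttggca
SNHG5: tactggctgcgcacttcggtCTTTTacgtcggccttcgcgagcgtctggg
ZFAS1: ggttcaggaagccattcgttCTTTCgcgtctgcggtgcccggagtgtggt
SNHG19: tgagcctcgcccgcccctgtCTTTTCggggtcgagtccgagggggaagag
SNHG1: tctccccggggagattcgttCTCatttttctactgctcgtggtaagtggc
SNHG17: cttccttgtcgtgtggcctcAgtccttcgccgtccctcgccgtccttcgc

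By this rule 6 of the 27 host promoters (22.2%) began with a TOP tract, and 1429 of all 35116 promoters of the same length (4.07%) did, as did 5.22% of those of tested genes. The tract was found in 2 of the 11 upregulated hosts with a promoter sequence and in 4 of the 16 others. Starts of *SNHG12* and *SNHG4* also fit the rule and are not shown, with the longest runs at 11 and 13 bases. Their log2(FC) values were 0.56 and -0.29, and neither was a DE gene. *SNHG1* missed the rule by an A at the fourth base, and *SNHG17* started with A. Annotated starts may differ from the start used in these cells. The letters TGATGNAA, the core of the element bound by ATF4 with C/EBP partners, were in 0 of the 27 host promoters on either strand, beside 3.62% of all promoters and 1.95% of the promoters of tested genes. The palindrome CACGTG, the E-box bound by MYC and USF factors, was in 2 of the 27, *SNHG7* and *SNHG30*, which is 7.41% beside 7.26% of all promoters and 9.48% of those of tested genes.

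The snoRNAs counted inside the hosts were almost unseen in this table. Of 144 snoRNA genes that lie within a host on the same strand in GENCODE v44, 34 were in the table and 32 were above 0 in any library, none with more than 17 reads. *SNHG14* alone held 84 of the 144. *GAS5* held none of them, so the 11 that RefSeq places there were not counted. The table held none of the 7 within *SNHG1*. Sequences of 3 of these are shown with box C (TGATGA) and the last box D (CTGA) in capitals, because their RNAs are the product for which *SNHG1* is transcribed. They are *SNORD25* (chr11:62855564-62855632), *SNORD27* (chr11:62855012-62855083), and *SNORD30* (chr11:62853663-62853732), all on the minus strand of GRCh38 and in introns of the canonical transcript, though exons of other annotated *SNHG1* transcripts cover them.
SNORD25: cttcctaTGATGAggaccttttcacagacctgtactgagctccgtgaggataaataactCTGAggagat
SNORD27: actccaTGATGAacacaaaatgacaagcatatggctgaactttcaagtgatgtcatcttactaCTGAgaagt
SNORD30: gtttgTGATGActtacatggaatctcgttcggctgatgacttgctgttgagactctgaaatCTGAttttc

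Of these snoRNAs, 19 passed the filter on low values and 1 was upregulated by limma, beside 7.34% of all tested genes, so this share was near the background. *SNORD116-2* was called downregulated, beside 5.84% of all tested genes, but it passed the filter only through the control group. Its call is therefore not read as a change. *SNORD104*, in *SNHG25*, was at 0.767, 2.39, and 2.47 FPKM in the control group and at 4.27, 4.45, and 5.58 FPKM in the case group, with a log2(FC) of 1.52 ± 0.38 and an adjusted P-value of 0.0392. These values came from 1 to 6 reads per library. *SNORD116-2*, in *SNHG14*, was at 0.565, 2.35, and 0.606 FPKM in the control group and at 0 in all 3 case libraries, from at most 4 reads, so no fold is given. Whether the amount of snoRNA followed the host RNA could not be read from these values.

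Genes that act in, or are sensitive to, the same pathways were then compared by the same fit. Among 12 mRNAs known to be targets of nonsense-mediated decay, 6 were upregulated and 0 were downregulated, beside 7.34% and 5.84% of all tested genes, and the median log2(FC) was 0.28. Stress-response genes led this list. *GADD45A*, a growth arrest and DNA damage gene, rose from 23.9, 21.4, and 25.8 FPKM to 43.8, 47.9, and 46.9 FPKM, a log2(FC) of 1.04 ± 0.09 with an adjusted P-value of 0.00197 by limma. By qRT-PCR on cells cultured and treated again, the authors instead reported less *GADD45A* in the case group. *GADD45B* had a log2(FC) of 0.95, the transcription factor gene *ATF3* 0.74, and *UPP1*, which encodes uridine phosphorylase, 0.80, with adjusted P-values from 0.00477 to 0.00759. Several of these genes are also transcribed in response to stress. Of the splicing factor mRNAs in the list, *SRSF3* was upregulated with a log2(FC) of 0.33 and an adjusted P-value of 0.0245, and *SRSF2*, *TRA2B*, and *HNRNPDL*, with log2(FC) values of 0.23, 0.00, and 0.06, were not DE genes.

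Of 10 genes for the factors that carry out the decay, 1 was upregulated and 0 were downregulated, with a median log2(FC) of -0.08. The shares called among all tested genes were 7.34% and 5.84%. All scaled case values lay below the control values in 4 of the 10 and above them in 1, beside 20.4% and 19.5% of all tested genes. *SMG9*, a cofactor of the kinase SMG1, was at 12.5, 13.3, and 12.2 FPKM in the control group and at 18.1, 15.7, and 17.0 FPKM in the case group, with a log2(FC) of 0.49 ± 0.10 and an adjusted P-value of 0.0213 by limma. Among those with lower fitted values, *SMG6*, the endonuclease of the pathway, had a log2(FC) of -0.50 with an adjusted P-value of 0.0671, and *UPF2*, a core factor that binds UPF1, had -0.50 and 0.0684. The kinase gene *SMG1* was at 3.13, 3.50, and 3.35 FPKM in the control group and at 0.953, 2.78, and 1.82 FPKM in the case group, with a log2(FC) of -0.86 ± 0.30 and an adjusted P-value of 0.0917. The helicase gene *UPF1* had a log2(FC) of 0.04 and an adjusted P-value of 0.798. All 6 genes of the exon junction complex were without a call, and their log2(FC) values ran from -0.32 for *CASC3* to 0.27 for *RBM8A*.

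The eIF2 branch, through which stressed cells lower the initiation of translation, held the largest changes among these lists. Of 13 genes, 7 were upregulated and 0 were downregulated, beside 7.34% and 5.84% of all tested genes, with a median log2(FC) of 0.35. *DDIT3*, which encodes CHOP, rose from 14.7, 11.7, and 11.9 FPKM to 35.4, 34.2, and 42.0 FPKM, a log2(FC) of 1.62 ± 0.12 with an adjusted P-value of 0.00152 by limma. *PPP1R15A*, which encodes the subunit GADD34 that recruits the eIF2α phosphatase, had a log2(FC) of 1.48 ± 0.09, *TRIB3* of 1.03 ± 0.09, and asparagine synthetase *ASNS* of 0.82 ± 0.07, each with groups that did not overlap. The eIF2 kinase genes *EIF2AK1*, *EIF2AK2*, *EIF2AK3*, and *EIF2AK4* were not DE genes and had log2(FC) values from -0.48 to 0.09. Translation was not measured in this table, and the part of reduced translation or decay in the host genes was not tested.

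Protein-coding genes whose introns also hold snoRNAs were compared next. Of 42 tested, 12 (28.6%) were upregulated and 2 (4.76%) were downregulated, beside 7.34% and 5.84% of all tested genes, and the median log2(FC) was 0.23. Those that rose included *RPL12* at 0.62 ± 0.10, *EEF1B2* at 0.54 ± 0.10, and *TPT1* at 0.59 ± 0.12. The largest change was in *HSPA8*, the constitutive HSP70 chaperone and a host of box C/D snoRNAs, which fell from 275, 279, and 268 FPKM to 116, 115, and 124 FPKM, a log2(FC) of -1.13 ± 0.07 with an adjusted P-value of 0.00152 by limma. *AP1G1*, a subunit of a clathrin adaptor, had a log2(FC) of -0.50 ± 0.12 and an adjusted P-value of 0.0313.

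Of 15 other mRNAs with a known TOP tract that were tested, 4 (26.7%) were upregulated and 1 (6.67%) was downregulated, beside 7.34% and 5.84% of all tested genes, with a median log2(FC) of 0.15. *EEF1A1*, the abundant elongation factor, had a log2(FC) of 0.55 ± 0.08 and an adjusted P-value of 0.0127 by limma, while *EIF3E*, an initiation factor subunit, had -0.38 ± 0.10 and 0.0430. The proteins that assemble on snoRNAs were represented by 10 genes, of which 3 were upregulated and 0 were downregulated, beside the same shares of all tested genes, with a median log2(FC) of 0.17. *NOP56* and *NOP58*, the paired core proteins of box C/D particles, had log2(FC) values of 0.35 and 0.57 with adjusted P-values of 0.0425 and 0.0388, and *NOP10* of box H/ACA particles had 0.46 and 0.0195. *FBL*, the methyltransferase of box C/D particles, had -0.06 and 0.800, and *DKC1*, the pseudouridine synthase of box H/ACA particles, had 0.07 and 0.560. The lists share some genes, such as *ATF4*, *EEF1B2*, *TPT1*, and *NOP56*.

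**Figure D4:**
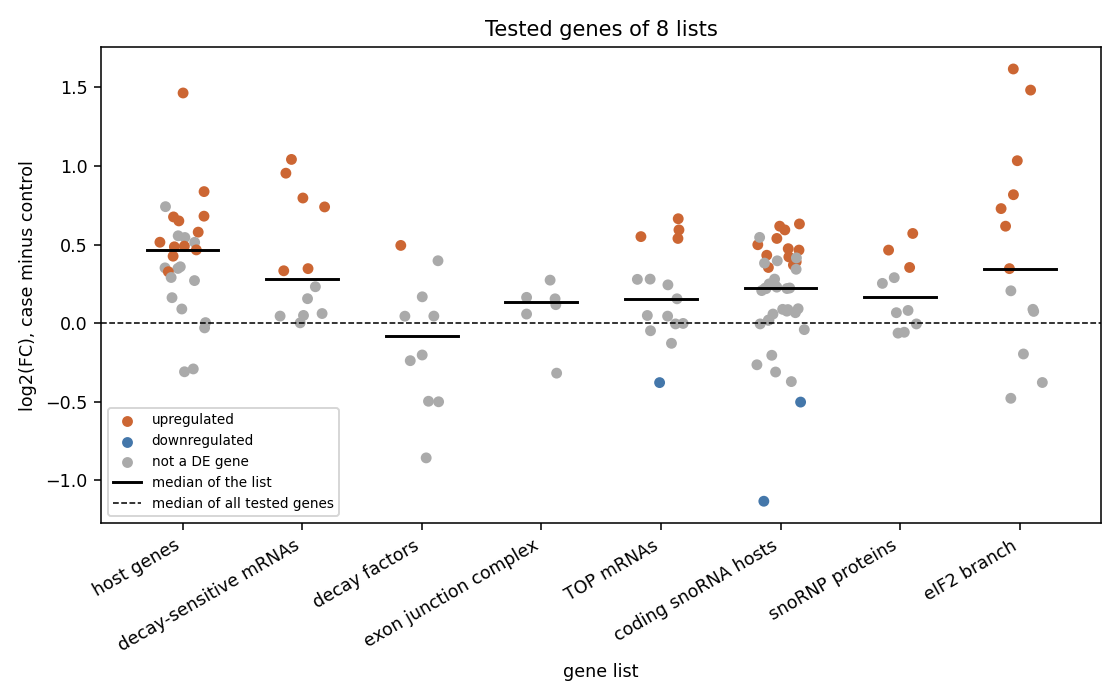
log2(FC) of the tested genes of 8 lists (horizontal axis), case minus control, with 1 point per gene coloured by its call, a bar at the median of each list, and a dashed line at the median of all tested genes. The bar of the host genes is at 0.47, that of the decay-sensitive mRNAs at 0.28, and that of the decay factors at -0.08.

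Other lncRNA genes with the same layout of frame and junctions were counted beside the hosts. Of the 577 other tested lncRNA genes with an exon junction at least 50 nucleotides behind the stop of the first frame, 26 (4.51%) were upregulated and 4 were downregulated, with a median log2(FC) of 0.08. Of the 593 without one, 35 (5.90%) were upregulated and 13 were downregulated, with a median of 0.11. Among the noncoding hosts, all 12 upregulated ones and 12 of the 14 others tested had such a junction. *SNHG3*, with no junction behind its stop, and *SNHG9*, whose first AUG was not found, were the exceptions.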

How the data were processed

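RNA of 3 control and 3 case replicates was sequenced, and the authors filtered the reads, aligned them to GRCh38.p13 with HISAT2 2.1.0, counted them on genes with HTSeq 0.6.0, and deposited FPKM values. Library selection and strandedness were not given in the sources used here. The authors tested counts, and their comparison was not used here. Here the FPKM of each library was scaled by a median-of-ratios factor, 0.1 was added, and log2 values were tested by limma 3.58.1 (R 4.3.3) with an intensity trend over the 13599 genes whose mean reached 0.5 FPKM. P-values were adjusted by Benjamini-Hochberg over all tested genes. The replicates were treated separately, but p-values measure only the spread between these samples. Whole reads were recovered from the steps between FPKM values for all 27922 genes above 0, each within 0.01 of a whole number in every library, up to a factor that a gene's counts may share. Symbols, exons, and transcripts came from GENCODE v44 and promoters from RefSeq. The members and all gene lists were chosen with earlier results of these data known. All hosts are named, with full values for those with a mean of at least 5 FPKM or a DE call, and up to 4 genes per direction and list by P-value, while *UPF1*, *SRSF3*, *SRSF2*, *TRA2B*, *HNRNPDL*, *FBL*, *DKC1*, and the kinases were added after their values were seen. Some items are not reported here. The fit was tested on simulated data. Exons of 30 of the 31 hosts overlap another annotated gene. Alternatives were pseudocounts of 1 and 0.01, no filter, a filter at 1 FPKM, no scaling, quantile normalization, TPM, no trend, robust estimation, a replicate block, voom on whole reads, and leaving out each replicate.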

Additional observations from a re-analysis of the deposited data

How the results depend on the processing

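The reported fit called 998 genes upregulated and 794 downregulated, with 12 and 0 hosts among them. Without a filter on low values these were 329 and 191 genes and 5 upregulated hosts. Without the intensity trend they were 436 and 416 genes and 5 hosts. With TPM they were 383 and 2387 genes and 6 hosts, and the median log2(FC) of the hosts was 0.27. FPKM as deposited gave 662 upregulated genes, and voom gave 1509 downregulated genes. With 1 library left out, upregulated genes ranged from 55 to 1813, downregulated genes from 14 to 1682, upregulated hosts from 2 to 16, and downregulated hosts from 0 to 1, the 1 being *SNHG4* without case replicate 2. Leaving out any control library removed most calls. Without control replicates 1, 2, and 3, 76, 55, and 68 genes were upregulated and 29, 14, and 19 downregulated, and without case replicate 3 these were 121 and 71. The cause was not tested. The host median stayed above that of all genes in every setting, by 0.37 to 0.50. Same-numbered replicates deviated together with correlations of 0.06, 0.10, and -0.05, so the numbers were not taken as pairs. The replicate block gave 848 and 762 genes and 14 upregulated hosts, with *DANCR*, *SNHG19*, and *ZFAS1* gained and *SNHG30* lost. The 4 hosts under the filter had at most 23 reads per library and the snoRNAs at most 17.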

Other observations

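Within the groups, 6 of the 27 tested hosts (*SNHG9*, *SNHG7*, *SNHG29*, *ZFAS1*, *SNHG19*, and *SNHG6*) had their highest scaled control value in control replicate 3 and their highest scaled case value in case replicate 1. This was so for 22.2% of the tested hosts and for 14.1% of all tested genes. The gene length used for FPKM had a median of 1745 bases in these 6 hosts and 3118 in the other tested hosts, and of 3238 bases in all tested genes with the pattern and 4535 in those without it. The pattern was noticed in the data and was not tested.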
